A study of Caenorhabditis elegans with 15 samples.

Results

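Genes for the HSP70 and HSP110 chaperones were followed by cellular compartment in early embryos of the nematode Caenorhabditis elegans. The set was chosen by name: all 9 rows of the count table whose WormBase identifier carries the symbol hsp-1, hsp-3, hsp-4, hsp-6, hsp-70, hsp-110, F44E5.4, F44E5.5 or stc-1, out of 20392 genes. All 9 passed the filter on low counts, which kept 15471 genes for testing. The 15 libraries of total RNA, depleted of ribosomal RNA, form 5 groups of 3 independent biological replicates. Kept at 20 °C were the wild type N2 strain (WT), the deletion mutant met-2(n4256) (met-2Δ) and the point mutant met-2(gw1660) (met-2-CD), and the first and second of these strains were also given heat stress (HS), 1 h at 37 °C. MET-2 is a histone H3 lysine 9 methyltransferase of the SETDB1 family, and met-2-CD carries a CRISPR-made substitution in its catalytic SET domain. No HS libraries of met-2-CD were analysed here. Heat was applied to the worm cultures, and the RNA is that of whole early embryos, before the bean stage, so that fewer cells of a type and less RNA per cell cannot be told apart.

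HSP70 proteins bind short hydrophobic stretches of unfolded proteins and release them in a cycle of ATP binding and hydrolysis. J-domain proteins start the hydrolysis, and nucleotide exchange factors, among them the HSP110 relatives of HSP70, reopen the cycle. The worm has separate HSP70 genes for the cytosol, the endoplasmic reticulum (ER) and the mitochondrion. In the cytosol, hsp-1 encodes the constitutive HSC70, hsp-110 the HSP110 exchange factor, and hsp-70 (C12C8.1), F44E5.4 and F44E5.5 the heat-inducible HSP70 proteins, whose genes are known targets of the heat shock factor HSF-1. In the ER, hsp-3 and hsp-4 encode the BiP proteins, of which hsp-4 is the classical reporter of the unfolded protein response, and stc-1 a divergent HSP70 related to human STCH. The mitochondrial HSP70, mortalin, is encoded by hsp-6, a reporter of mitochondrial stress.

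Positions of the genes are given from the WBcel235 annotation by identifier, whereas the authors counted on ce10, and no position was converted. The gene hsp-70 (WBGene00002026) lies on chromosome I, from 9320325 to 9322519, with 3 exons. F44E5.4 (WBGene00009691, 11757107 to 11759311) and F44E5.5 (WBGene00009692, 11759662 to 11761861) are neighbours on chromosome II, with 2 exons each. They are transcribed away from each other, with 350 bases and no annotated gene between them. The other cytosolic genes are hsp-1 (WBGene00002005) on chromosome IV, from 17278959 to 17281330, and hsp-110 (WBGene00016250) on chromosome III, from 8443910 to 8446909. The ER genes are hsp-3 (WBGene00002007) on chromosome X, from 6089028 to 6092124, hsp-4 (WBGene00002008) on chromosome II, from 7350112 to 7352645, and stc-1 (WBGene00006059) on chromosome II, from 8563709 to 8566139. The mitochondrial hsp-6 (WBGene00002010) lies on chromosome V, from 4824124 to 4826760. The counts take the strand into account, and stc-1 is overlapped by 1 gene on the opposite strand. F44E5.4 and F44E5.5 are closely similar copies, and a read that fits both has no unique alignment. Their levels may therefore be understated, and the split between them is uncertain.

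Libraries held 16.15 to 58.84 M counts, the WT libraries at 20 °C 45.83 M or more. The met-2 transcript served as a check of the labels, at 306.0 to 318.4 CPM in WT and 32.5 to 34.2 CPM in met-2Δ at 20 °C (CPM, the count relative to the scaled size of its library). In met-2-CD, it had 281.1 to 309.1 CPM. The WT libraries at 20 °C stood apart: 13 genes had at most 3 counts in each of them and at least 20 in all 12 others, 15 genes the reverse, and no other group had such a gene. The HS responses in WT of the 9 genes and of their partner genes, and the interaction of the 9 genes, were therefore also tested with the met-2-CD libraries as the baseline. Such a contrast sets WT under HS against an unstressed mutant. It mixes genotype with HS and is not an HS response of WT. Markers of the early zygotic genome, 8 genes such as end-1 and pes-10, summed to 347.7 to 400.6 CPM in WT at 20 °C, 169.9 to 195.9 CPM in the mutants at 20 °C and 63.9 to 82.1 CPM under HS. Markers of differentiated tissue did not move as one. The sum of the 7 genes, most of it from the muscle myosin genes myo-3 and unc-54, was 91.3 to 173.7 CPM in WT at 20 °C, 355.2 to 748.8 CPM in the mutants and 1235 to 2284 CPM under HS. The gut regulator gene elt-2 went the other way, with a mean of 35.6 CPM in WT at 20 °C, 16.9 CPM in WT under HS, and 18.7 and 28.3 CPM in unstressed met-2Δ and met-2-CD embryos, and it was called lower in each of these comparisons with WT at 20 °C. The gut esterase gene ges-1 was called in none of them. The 9 maternal markers summed to between 2146 and 3571 CPM in the 15 libraries. The 5 yolk genes of the adult intestine reached at most 14.9 CPM, in WT under HS, and the 4 sperm genes at most 7.04 CPM, with msp-19 at 0 in all libraries. The part of these markers in the results below was not tested.

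At 20 °C, the ER genes, the cytosolic hsp-1 and hsp-110, and hsp-6 made up nearly all transcripts of the 9 genes. Levels were compared between genes as RPKM (CPM per kilobase of exon). In WT at 20 °C, hsp-3 was highest with 825.9 ± 17.8 RPKM (SD, n = 3), followed by hsp-1 with 569.7 ± 40.8. Next came hsp-4 with 190.9 ± 3.69 and hsp-6 with 175.4 ± 15.8 RPKM, whose libraries overlapped. Further down, hsp-110 had 84.2 ± 4.07 and stc-1 58.4 ± 2.55 RPKM. The heat-inducible genes closed the order, hsp-70 with 2.89 ± 0.673 RPKM, F44E5.4 with 0.0471 ± 0.0214 and F44E5.5 with 0.0375 ± 0.0229 RPKM, this pair overlapping. In both mutants at 20 °C the first 6 places were the same, but F44E5.5 and F44E5.4 stood above hsp-70. Their levels were 4.81 ± 0.649 and 3.59 ± 0.503 RPKM in met-2Δ and 12.2 ± 1.06 and 9.41 ± 0.783 RPKM in met-2-CD, against 1.38 ± 0.41 and 1.81 ± 0.258 RPKM for hsp-70, with no overlap between neighbours in this part of the order. Under HS the order was rebuilt. In WT, hsp-1 led with 1718 ± 167.6 RPKM. It was followed by hsp-110 with 1214 ± 108.3, hsp-70 with 1043 ± 237.5 and hsp-3 with 895.5 ± 66.9 RPKM, of which each overlapped the next. F44E5.5 with 801.7 ± 33.2, F44E5.4 with 648 ± 41.4 and hsp-4 with 624.2 ± 64.9 RPKM came next, ahead of hsp-6 with 150.9 ± 4.4 and stc-1 with 30.2 ± 2.16 RPKM. In met-2Δ under HS, hsp-1 again led with 1301 ± 44.9 RPKM, and hsp-6 with 148.9 ± 6.26 and stc-1 with 27 ± 0.609 RPKM again came last.

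**Figure D1:**
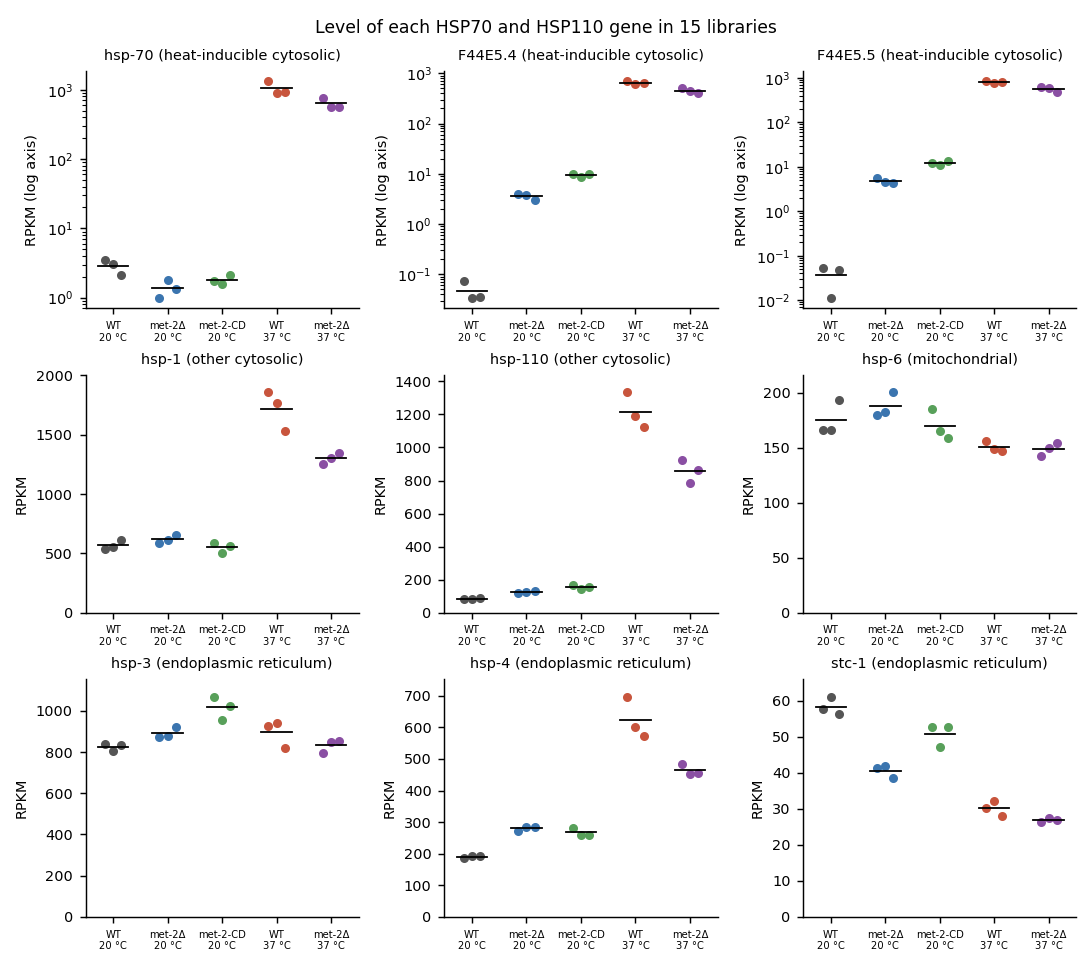
Level of each of the 9 genes in every library, as RPKM, with 3 points and a line at the mean for each group. The axis is logarithmic for the 3 heat-inducible genes of the top row and linear from 0 for the others. Among the linear panels, hsp-1, hsp-110 and hsp-4 are raised under HS, stc-1 is lowered, and hsp-3 and hsp-6 stay within a narrow band.

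The first comparison asked which compartments respond to HS in WT embryos. A gene was called at FDR below 0.01 (edgeR quasi-likelihood test, adjusted over all 15471 genes). In WT, 6 of the 9 genes were higher under HS and 1 was lower, where 44% of all genes tested were called higher and 35.6% lower. With so broad a background the size of a change says more than its call: the median log2 fold change (log2FC) was 1.71 over the 9 genes and 0.18 over all genes. Scaling by library totals alone moved the latter to 0.41. By size of log2FC, hsp-70 ranked 87 from the highest of the 15471 genes and hsp-110 2067. The ranks of hsp-4 and hsp-1 were 4809 and 4972, so their rises were not among the largest over all genes.

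All 3 heat-inducible cytosolic genes rose in WT by 358.7-fold or more. The counts of hsp-70 in libraries a, b and c were 378, 264 and 179 in WT at 20 °C and 76254, 50822 and 49871 under HS, that is 7.11, 6.3 and 4.41 CPM against 2707, 1821 and 1908 CPM. The rise was 358.7-fold (log2FC 8.49 ± 0.252, SE; edgeR FDR 4.25e-13). Against the met-2-CD baseline it was larger, with a log2FC of 9.17. F44E5.4 had 8, 3 and 3 counts in WT at 20 °C and 111676 in the 3 HS libraries together, 1271 to 1444 CPM. F44E5.5 had 6, 1 and 4 counts at 20 °C and 137804 under HS, 1603 to 1741 CPM. The ratio of the summed, scaled counts was 13158 for F44E5.4 (95% counting interval 7842 to 24068) and 20664 for F44E5.5 (11549 to 41396). These intervals cover counting error only. The fitted log2FC was 13.63 ± 0.193 for F44E5.4 (edgeR FDR 2.51e-16) and 14.27 ± 0.219 for F44E5.5 (edgeR FDR 4.18e-16), the sixth and the third highest of all genes tested. These sizes rest on WT counts near 0. Against met-2-CD, the ratio was 69.2 (66.6 to 72) for F44E5.4 and 65.8 (63.6 to 68.1) for F44E5.5. Counting both genes as 1 feature gave a log2FC of 13.98 ± 0.208 (edgeR FDR 5.06e-16).

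The other cytosolic genes rose less, and hsp-110 rose more than hsp-1. The exchange factor gene hsp-110 went from 215.6, 229.6 and 237.3 CPM to 3602, 3210 and 3030 CPM, 14.4-fold (log2FC 3.85 ± 0.093, edgeR FDR 6.87e-14). For hsp-1, the values were 1120, 1146 and 1278 CPM at 20 °C and 3850, 3656 and 3175 CPM under HS, 3.01-fold (log2FC 1.59 ± 0.086, edgeR FDR 1.34e-10). In neither gene did the groups overlap. The log2FC against the met-2-CD baseline was 2.97 for hsp-110 (edgeR FDR 2.03e-12) and 1.64 for hsp-1 (edgeR FDR 4.26e-10).

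The ER genes went 3 ways. The BiP gene hsp-4 rose from 416.7, 430.6 and 431.2 CPM to 1556, 1344 and 1279 CPM, 3.27-fold (log2FC 1.71 ± 0.072, edgeR FDR 1.07e-11), and also passed against met-2-CD (edgeR FDR 1.14e-09). Its paralog hsp-3 had 2231, 2147 and 2227 CPM at 20 °C and 2470, 2510 and 2183 CPM under HS, groups that overlap (log2FC 0.12 ± 0.07, edgeR FDR 0.13). Its direction and call depended on the setting. Under scaling by library totals alone hsp-3 passed the test with 0.34 (edgeR FDR 3.92e-05), and against met-2-CD the value was −0.18 (edgeR FDR 0.0267). By contrast, stc-1 fell from 95.7, 101.6 and 93.4 CPM to 50, 53.6 and 46.5 CPM (log2FC −0.95 ± 0.067, edgeR FDR 2.37e-09, and −0.75 against met-2-CD, edgeR FDR 8.21e-08). The mitochondrial hsp-6 had 409.8, 408.4 and 476.4 CPM at 20 °C and 383.4, 367.1 and 362.9 CPM under HS. The groups did not overlap, but the log2FC of −0.22 ± 0.075 did not pass (edgeR FDR 0.0137). It was 0.01 with library totals alone, and it passed in other settings, among them the DESeq2 Wald test (−0.28, FDR 0.00235). Against met-2-CD it was −0.17 (edgeR FDR 0.0517), so no direction that holds in all of them can be given for hsp-6 in WT.

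**Figure D2:**
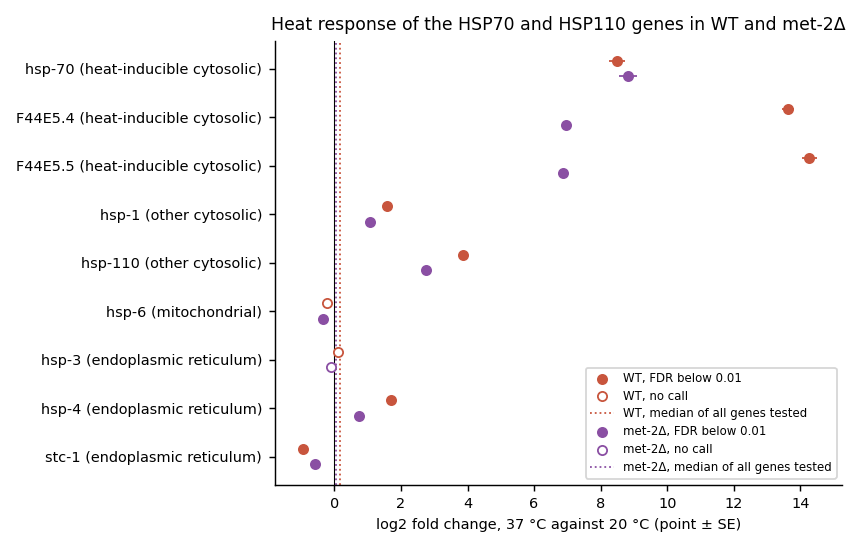
Log2 fold change of each gene between 37 °C and 20 °C in WT and met-2Δ, with the standard error, filled where the FDR is below 0.01. Dotted lines mark the medians of all genes tested, 0.18 in WT and 0.04 in met-2Δ. The cytosolic genes and hsp-4 lie to the right of both lines and stc-1 to the left, and the 2 genotypes are far apart for F44E5.4 and F44E5.5.

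For met-2Δ, HS raised these 6 genes as well and lowered 2, where 17.3% of all genes were called higher and 21.2% lower. The counts of hsp-70 were 53, 103 and 55 at 20 °C and 30283, 25940 and 19585 under HS, a 454.5-fold rise (log2FC 8.83 ± 0.267, edgeR FDR 3.78e-12) and the fourth highest log2FC of all genes. F44E5.4 rose 124.2-fold, from 6.35 to 8.39 CPM at 20 °C to 837.9 to 1049 CPM (log2FC 6.96 ± 0.131, edgeR FDR 9.58e-15). For F44E5.5 the rise was 117.4-fold, from 9.18 to 11.6 CPM to 1002 to 1328 CPM (log2FC 6.88 ± 0.143, edgeR FDR 2.79e-14). Here the baseline counts were 128 or more in each library, so these folds have a firmer base than those in WT. Among the other genes, hsp-110 rose 6.75-fold, hsp-4 1.65-fold and hsp-1 2.11-fold, with log2FC values of 2.76, 0.73 and 1.07. By size these ranked 701, 3729 and 2574 from the highest of all genes tested. The values of hsp-4 were 605.2, 637.5 and 636.4 CPM at 20 °C and 1081, 1012 and 1015 CPM under HS. In the ER, stc-1 fell from 64.2 to 69.5 CPM to 43.7 to 45.7 CPM (log2FC −0.59 ± 0.068, edgeR FDR 4.28e-06). In the mitochondrion, hsp-6 fell from 443, 449 and 493 CPM to 350.1, 368.3 and 380.7 CPM (log2FC −0.33 ± 0.075, edgeR FDR 0.0018). Without met-2Δ HS library a, the latter call was lost (−0.3, edgeR FDR 0.0109). For hsp-3, the log2FC of −0.1 ± 0.07 did not pass (edgeR FDR 0.249).

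The shift between compartments was followed as shares of the summed RPKM of the 9 genes, which do not depend on scaling between libraries. In WT, the 3 heat-inducible cytosolic genes held 0.157 ± 0.0405% of the sum at 20 °C (SD, n = 3) and 34.9 ± 2.07% under HS. The ER genes went from 56.4 ± 1.59% to 21.8 ± 0.844% and hsp-6 from 9.18 ± 0.495% to 2.12 ± 0.125%. The shares are parts of one sum, so they depend on each other, and a class can lose share without losing level. In WT, hsp-3 went from 825.9 to 895.5 RPKM under HS and hsp-4 from 190.9 to 624.2 RPKM. By contrast, stc-1 went from 58.4 to 30.2 RPKM. The mean of hsp-6 went from 175.4 to 150.9 RPKM, a change that was not called and whose direction depended on the setting. The share of hsp-1 and hsp-110 together rose from 34.3 ± 1.18% to 41.2 ± 1.25%, as hsp-110 went from 4.41 to 17% and hsp-1 from 29.8 to 24.1%. In met-2Δ, the heat-inducible share went from 0.455 ± 0.0593% to 31.1 ± 3.13% and the ER share from 56.3 ± 0.629% to 25.1 ± 1.31%. The libraries of both temperatures were fully separated for each of these 4 classes in both genotypes (two-sided exact permutation test, p = 0.1, the smallest that 3 against 3 libraries can give). Between WT and met-2Δ under HS the heat-inducible shares overlapped (32.6 to 36.2% against 28.2 to 34.4%, exact permutation p = 0.2). The share of the 9 genes together among all counts was 0.406 to 0.417% in WT at 20 °C and 1.61 to 1.85% under HS, and in met-2Δ it was 0.534 ± 0.011% and 1.26 ± 0.0512%. In met-2-CD at 20 °C, the heat-inducible genes held 1.05 ± 0.0668% and the ER genes 59.8 ± 0.451% of the summed RPKM. The 9 genes together held 0.511 to 0.545% of all counts in these libraries.

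**Figure D3:**
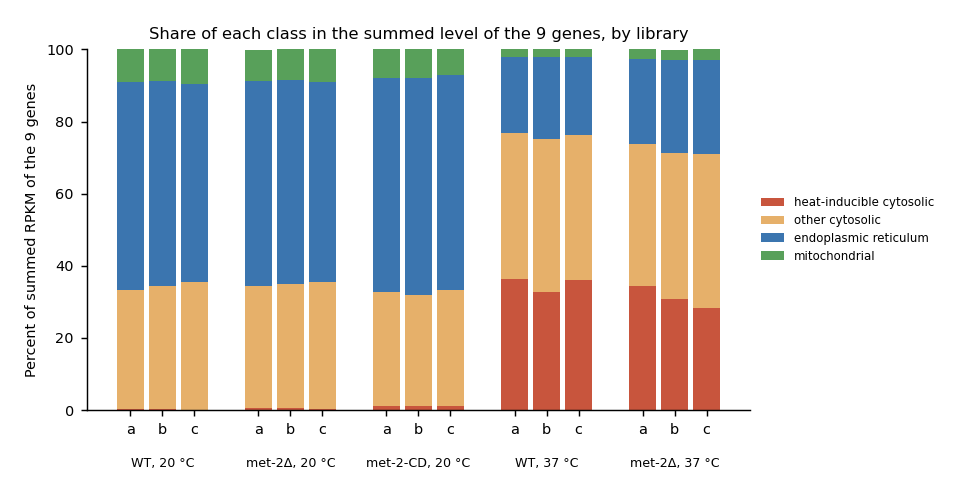
Share of the summed RPKM of the 9 genes held by each class, 1 bar for each of the 15 libraries, named by the letter of its column. The heat-inducible class is at most 1.12% in the 9 libraries at 20 °C and between 28.2 and 36.2% in the 6 HS libraries, and the ER share is correspondingly smaller.

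Ratios within a library showed how partners moved against each other. The ratio of the exchange factor gene hsp-110 to hsp-1 was 0.148, 0.154 and 0.142 in WT at 20 °C and 0.718, 0.674 and 0.732 under HS. It was intermediate in the unstressed mutants, with 0.204 to 0.207 in met-2Δ and 0.281 to 0.282 in met-2-CD. Under HS, the ratio in met-2Δ (0.602 to 0.734) overlapped that in WT (exact permutation p = 0.4). The ratio of the BiP genes, hsp-4 to hsp-3, was 0.223 to 0.24 in WT at 20 °C and 0.64 to 0.753 under HS, and 0.309 to 0.325 and 0.531 to 0.611 in met-2Δ. Under HS the 2 genotypes did not overlap in this ratio (exact permutation p = 0.1, the smallest possible), and met-2-CD had 0.252 to 0.273. The ratio of hsp-6 to hsp-1 lay between 0.283 and 0.328 in all 9 libraries at 20 °C and fell to 0.0839 to 0.0963 in WT and 0.113 to 0.115 in met-2Δ under HS. F44E5.5 exceeded F44E5.4 by 1.2 to 1.45 times in each of the 12 libraries other than those of WT at 20 °C. In these, 3 to 8 counts of F44E5.4 and 1 to 6 of F44E5.5 left the ratio undetermined. The ratio of hsp-70 to the sum of the pair turned over with genotype. It was 26 to 67.2 in WT at 20 °C, 0.105 to 0.221 in met-2Δ and 0.0786 to 0.0908 in met-2-CD, while under HS it was 0.638 to 0.865 in WT and 0.548 to 0.672 in met-2Δ.

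**Figure D4:**
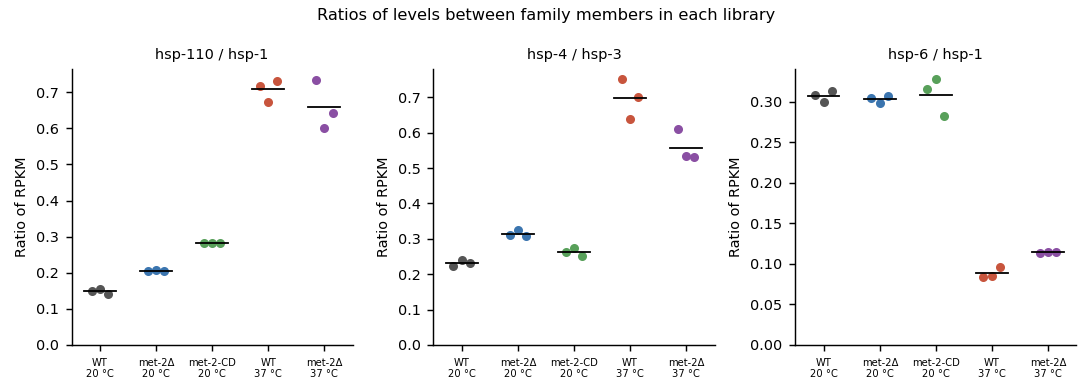
Ratios of RPKM within each library for hsp-110 to hsp-1, hsp-4 to hsp-3 and hsp-6 to hsp-1, with 3 points and a line at the mean for each group and axes from 0. At 20 °C hsp-110 to hsp-1 is separated between all 3 genotypes, whereas hsp-6 to hsp-1 is close to 0.3 in each of them and about 0.1 under HS.

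The second comparison asked how the loss of MET-2, or of its catalytic activity, changes the family at 20 °C. The deletion mutant had 4 genes above WT and 2 below it, where 28.2% of all genes were called higher and 27.5% lower. The point mutant met-2-CD had 5 genes above WT and 0 below it, where 26.5% were called higher and 24.9% lower. In the edgeR test of met-2-CD, hsp-70 and stc-1 were below WT without passing (edgeR FDR 0.0161 and 0.0152), and both passed by the DESeq2 Wald test. At an unadjusted edgeR p below 0.05, these 2 genes were lower. Of the calls over all genes in met-2Δ, 63.8% were higher with library totals alone, against 50.6% with TMM scaling. Both comparisons share the WT libraries that stand apart, so they are not independent of each other.

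The heat-inducible genes did not move together between genotypes. In WT, F44E5.4 had 0.0716 to 0.151 CPM. Its libraries in met-2Δ were at 8.39, 7.83 and 6.35 CPM and those in met-2-CD at 20.7, 17.8 and 20.6 CPM. The ratio to WT was 73.8 (95% counting interval 43.6 to 135.9) in met-2Δ and 190.1 (113.1 to 348.2) in met-2-CD, with log2FC values of 6.15 ± 0.227 (edgeR FDR 9.61e-12) and 7.53 ± 0.201 (edgeR FDR 3.3e-13). F44E5.5 lay at 0.0239 to 0.113 CPM in WT, and reached 9.18 to 11.6 CPM with the deletion and 23.3 to 27.7 CPM with the point mutation. Its ratio to WT was 124.5 (69.2 to 250.4) and 314 (175.2 to 629.6). In met-2-CD, the 2 genes had the eleventh and the eighth highest log2FC of all genes. By contrast, hsp-70 was lower in met-2Δ, with 2.06, 3.73 and 2.73 CPM against 7.11, 6.3 and 4.41 CPM in WT (log2FC −1.06 ± 0.257, edgeR FDR 0.00186), and had 3.56, 3.29 and 4.31 CPM in met-2-CD (−0.68 ± 0.227, edgeR FDR 0.0161). The pair and hsp-70 thus differed in the sign of their change against the same WT libraries. The zygotic and tissue markers given above differ between the same groups, and their part in this result was not tested.

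The other genes changed by less than 2-fold between genotypes at 20 °C. In met-2Δ, hsp-110 was higher 1.51-fold (327 to 359.9 against 215.6 to 237.3 CPM, log2FC 0.59 ± 0.084, edgeR FDR 1.52e-05) and hsp-4 1.47-fold (605.2 to 637.5 against 416.7 to 431.2 CPM, 0.56 ± 0.071, edgeR FDR 5.14e-06), and stc-1 was lower (log2FC −0.52 ± 0.066, edgeR FDR 5.08e-06). In met-2-CD, hsp-110 was higher 1.84-fold (384.1 to 445.5 CPM, 0.88 ± 0.084, edgeR FDR 2.81e-07), hsp-4 1.4-fold (577.5 to 629.9 CPM, 0.48 ± 0.071, edgeR FDR 2.33e-05) and hsp-3 1.23-fold (2545 to 2850 against 2147 to 2231 CPM, 0.3 ± 0.07, edgeR FDR 0.00152). The call of hsp-3 was lost without WT library b (0.25, edgeR FDR 0.0104) and when only the 2 groups were fitted (0.31, edgeR FDR 0.0111). The constitutive hsp-1 and hsp-6 passed in neither mutant, with log2FC values of 0.12 and 0.1 in met-2Δ and −0.05 for both in met-2-CD. For hsp-1, hsp-3 and hsp-6, scaling by library totals alone led to a call as higher in met-2Δ, with 0.32, 0.31 and 0.3.

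**Figure D5:**
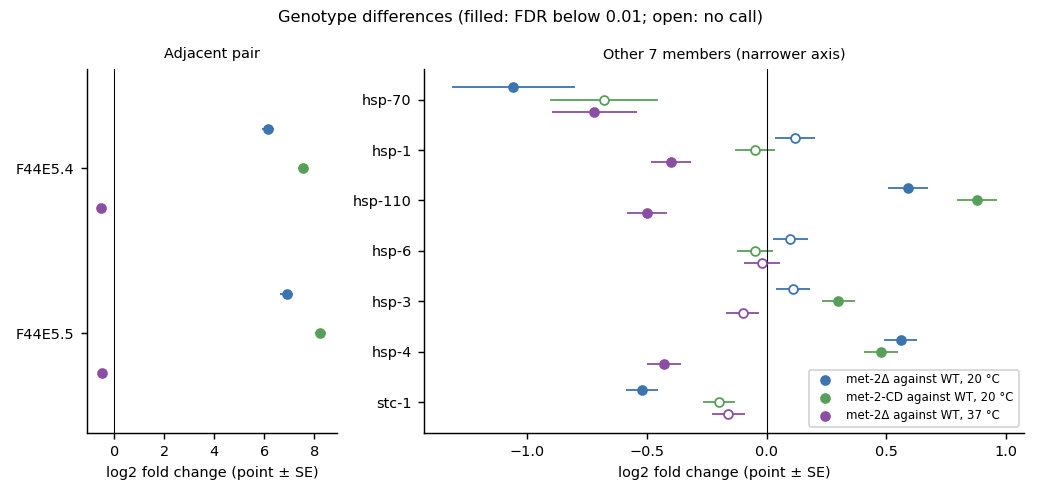
Log2 fold changes between genotypes with standard errors, for F44E5.4 and F44E5.5 on the left and for the other 7 genes on a narrower axis on the right, filled where the FDR is below 0.01. The pair is above WT by 6.15 to 8.23 in the mutants at 20 °C and below it by 0.5 to 0.53 under HS, and hsp-110 and hsp-4 also change side between 20 °C and HS.

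The mutants were also compared with each other, a contrast whose fold does not use the WT levels, although the WT libraries entered the scaling, the filter and the estimate of the spread. Of the 9 genes, 3 had a lower level with the deletion than with the point mutation and 0 were higher (0 also at an unadjusted edgeR p below 0.05 and by the DESeq2 Wald test), where 11% of all genes were called lower and 9.58% higher. Of the calls over all genes, 66.3% were higher with library totals alone, against 46.6% with TMM scaling. F44E5.4 and F44E5.5 were 2.6-fold and 2.53-fold lower in met-2Δ (log2FC −1.38 ± 0.116, edgeR FDR 1.31e-06, and −1.34 ± 0.124, edgeR FDR 3.77e-06), and stc-1 was lower by 1.25-fold (−0.32 ± 0.066, edgeR FDR 0.00197). The last call was lost without met-2Δ library c (−0.29, edgeR FDR 0.0118), with library totals alone (−0.25, edgeR FDR 0.0111) and when only these 2 groups were fitted (−0.29, edgeR FDR 0.0128). For hsp-110, the log2FC was −0.29 ± 0.083 (edgeR FDR 0.0143), which passed by the DESeq2 Wald test (FDR 0.00432) and without WT library a or c (edgeR FDR 0.00904 and 0.00722). For hsp-70, it was −0.38 ± 0.269 with overlapping libraries.

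Under HS, 6 genes were lower in met-2Δ than in WT and 0 were higher (0 also at an unadjusted edgeR p below 0.05 and by the DESeq2 Wald test), where 6.59% of all genes were called higher and 10.5% lower. The median log2FC was −0.43 over the 9 genes and −0.13 over all genes. In hsp-70, the libraries had 2707, 1821 and 1908 CPM in WT and 1570, 1158 and 1176 CPM in met-2Δ (log2FC −0.72 ± 0.178, edgeR FDR 0.00723). The other 5 lay close together. F44E5.4 had a log2FC of −0.53 ± 0.097 (edgeR FDR 0.00123) and F44E5.5 one of −0.5 ± 0.108 (edgeR FDR 0.00317). The value was −0.5 ± 0.083 in hsp-110 (edgeR FDR 0.000582), −0.43 ± 0.071 in hsp-4 (edgeR FDR 0.000597) and −0.4 ± 0.084 in hsp-1 (edgeR FDR 0.00282). The groups of none of these 6 genes overlapped, but nor did those of stc-1, which was not called. The share of all genes without such overlap is not given here, so the separation does not set the 6 genes apart. The calls of F44E5.4, hsp-110 and hsp-4 held with each library left out in turn, with an edgeR FDR of at most 0.00982. That of hsp-70 was lost without any 1 of WT HS libraries a and c, met-2Δ HS libraries b and c, WT library b, met-2Δ library c and met-2-CD library b (−0.52 to −0.8, edgeR FDR 0.0102 to 0.0468). That of F44E5.5 was lost without WT HS library a or c or met-2Δ HS library b or c (−0.39 to −0.52, edgeR FDR 0.0105 to 0.0202). That of hsp-1 was lost without WT HS library a or b or any of the 3 met-2Δ HS libraries (−0.34 to −0.42, edgeR FDR 0.0102 to 0.0185). The remaining genes were hsp-3 (−0.1), stc-1 (−0.16) and hsp-6 (−0.02), none of which passed.

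The last comparison set the HS response of met-2Δ against that of WT (interaction term). It passed for 6 genes, of which 5 had a smaller rise in met-2Δ and 1, stc-1, a smaller fall. Over all genes, 27% were called lower and 23.1% higher, and 46.1% of the calls were higher, or 32.5% with library totals alone. For F44E5.4 and F44E5.5, the interaction was −6.68 ± 0.254 (edgeR FDR 4.35e-11) and −7.39 ± 0.283 (edgeR FDR 4.5e-11). These are the differences between genotypes under HS, −0.53 and −0.5, less those at 20 °C, 6.15 and 6.89. With met-2-CD in place of WT at 20 °C, it turned to 0.85 (edgeR FDR 0.000984) and 0.84 (edgeR FDR 0.00189). The exchange factor gene hsp-110 had −1.09 ± 0.118 (edgeR FDR 1.65e-06) and −0.21 with met-2-CD as baseline (edgeR FDR 0.187). The BiP gene hsp-4 had −0.98 ± 0.1 (edgeR FDR 9.45e-07) and −0.5 (edgeR FDR 0.00219), and hsp-1 had −0.52 ± 0.119 (edgeR FDR 0.00148) and −0.57 (edgeR FDR 0.00296). The negative values of hsp-4 and hsp-1 thus passed with both baselines, and that of hsp-110 with WT alone. Since the met-2-CD baseline adds a genotype difference, passing or failing with it is no test of the interaction itself. Without WT library a, hsp-1 had −0.39 (edgeR FDR 0.0113). The value of stc-1 was 0.36 ± 0.095 (edgeR FDR 0.00389) and 0.16 with met-2-CD as baseline (edgeR FDR 0.218). It also failed without WT HS library c, met-2Δ library c or met-2Δ HS library b (0.31 to 0.35, edgeR FDR 0.0105 to 0.012) and with library totals alone (0.15, edgeR FDR 0.202). For hsp-70, the interaction was 0.34 ± 0.314 (edgeR FDR 0.359), for hsp-3 −0.22 ± 0.099 (edgeR FDR 0.0703) and for hsp-6 −0.12 ± 0.106 (edgeR FDR 0.358). With met-2-CD as baseline, these were −0.34 (edgeR FDR 0.46), 0.08 (edgeR FDR 0.549) and −0.16 (edgeR FDR 0.269).

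Partner genes of each compartment were counted from fixed lists. Of 15 cytosolic partners, which include HSP90, its cochaperones, J-domain proteins and the regulator gene hsf-1, 7 rose and 5 fell under HS in WT, with a median log2FC of 0.12, where 44% of all genes were called higher and 35.6% lower. Against met-2-CD, 10 were higher in WT under HS and the other 5 did not pass, with a median of 0.57. Of all genes, 36% were called higher and 30% lower in this contrast, which also holds the genotype difference. The HSP90 gene hsp-90 went from 1016 to 1055 CPM to 7030 to 8216 CPM (log2FC 2.91, edgeR FDR 3.28e-13), and unc-23, a BAG-domain cochaperone gene required for muscle attachment, from 6.31 to 14.8 CPM to 313 to 353.6 CPM (4.84, edgeR FDR 2.43e-10). Against met-2-CD, the values were 1.9 for hsp-90 (edgeR FDR 7.61e-11) and 3.71 for unc-23 (edgeR FDR 7.12e-09). The lowest values were those of chn-1, the CHIP ubiquitin ligase gene, with −1.28, and hsb-1, a gene for an inhibitor of HSF-1, with −0.86. Likewise hsf-1 itself fell against WT at 20 °C, from 148.6 to 176.5 CPM to 96.5 to 102.9 CPM (−0.71, edgeR FDR 2.68e-07). None of these 3 passed against met-2-CD, with −0.13 for chn-1 (edgeR FDR 0.0725), −0.06 for hsb-1 (edgeR FDR 0.524) and −0.12 for hsf-1 (edgeR FDR 0.148). In met-2Δ, 9 cytosolic partners rose under HS and the other 6 did not pass, where 17.3% of all genes were called higher and 21.2% lower, and hsf-1 had a log2FC of 0.05 (edgeR FDR 0.609). At 20 °C, hsf-1 was lower in met-2Δ (−0.44, edgeR FDR 0.000102) and met-2-CD (−0.59, edgeR FDR 6.03e-06). By contrast, hsp-90 was higher, like hsp-110, with 0.81 (edgeR FDR 2.93e-07) and 1.01 (edgeR FDR 3.44e-08), and its interaction was −1.41 (edgeR FDR 8.32e-08), or −0.4 with met-2-CD as baseline (edgeR FDR 0.0152).

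Of 17 ER partners, 3 rose and 8 fell under HS in WT, with a median log2FC of −0.13, beside 44% and 35.6% of all genes. Against met-2-CD, 3 were higher and 6 lower in WT under HS (median −0.12), beside 36% and 30%. By library totals alone, 7 rose and 4 fell, so the list as a whole has no direction that holds under both scalings. The kinase gene pek-1 of the unfolded protein response (0.78) and the disulfide isomerase gene pdi-2 (0.68) had the highest values, and atf-6, another sensor gene of this response (−1.51), and the J-domain gene dnj-7 (−0.87) the lowest. Against met-2-CD, pek-1 (0.93), atf-6 (−0.57) and dnj-7 (−0.6) were called in the same direction, but pdi-2 had −0.23 (edgeR FDR 0.0115). The transcription factor gene xbp-1 is the one through which hsp-4 is induced in ER stress. In WT, xbp-1 had 226.8 to 242.1 CPM at 20 °C and 205.2 to 232.8 CPM under HS (−0.13, edgeR FDR 0.0719). Its level in WT under HS was above that in unstressed met-2-CD embryos (0.89, edgeR FDR 8.24e-09). That contrast also holds the genotype difference of xbp-1 at 20 °C given below. In met-2Δ under HS, 3 ER partners rose and 2 fell, beside 17.3% and 21.2% of all genes, and xbp-1 rose from 91.7 to 95 CPM to 139.1 to 157.8 CPM (0.66, edgeR FDR 7.95e-07). At 20 °C xbp-1 was lower in met-2Δ (−1.33, edgeR FDR 1.71e-10) and met-2-CD (−1.02, edgeR FDR 2.79e-09), in which hsp-4 was higher. The counts give no information on the splicing of xbp-1.

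Of 15 mitochondrial partners, 2 rose and 9 fell under HS in WT, with a median log2FC of −0.5, beside 44% and 35.6% of all genes. These were 4 and 8 with library totals alone. Against met-2-CD they were 2 and 9 (median −0.4), beside 36% and 30%. The 2 that rose were ubl-5 (1.57, edgeR FDR 2.59e-07), a ubiquitin-like cofactor of the mitochondrial stress response, and the chaperonin gene hsp-60 (0.9, edgeR FDR 1.44e-07). The chaperonin gene went from 199.5 to 239.3 CPM to 374.2 to 418.4 CPM, next to the −0.22 of hsp-6, the other classical mitochondrial chaperone. The lowest were the protease gene clpp-1 (−1.71) and the import gene tin-44 (−1.22), and the stress regulator gene atfs-1 also fell (−0.68, edgeR FDR 4.15e-06). Against met-2-CD, hsp-60 (0.38, edgeR FDR 0.00131), clpp-1 (−0.58) and tin-44 (−0.66) were called in the same direction, while ubl-5 had −0.43 (edgeR FDR 0.0219) and atfs-1 0.08 (edgeR FDR 0.447). In met-2Δ under HS, 1 rose and 3 fell, beside 17.3% and 21.2% of all genes. Of 3 further genes of the HSP70 superfamily, T14G8.3 fell in WT (−0.42, edgeR FDR 4.26e-05), though not with library totals alone, and T24H7.2 and F11F1.1 did not pass. Against met-2-CD, T14G8.3 (−0.46) and T24H7.2 (−0.21, edgeR FDR 0.00482) were lower. In met-2Δ at 20 °C, 8 cytosolic, 11 ER and 7 mitochondrial partners were lower than in WT and 3 of each list higher, beside 27.5% and 28.2% of all genes. With library totals alone, the lower ones numbered 6, 6 and 6 and the higher ones 4, 5 and 5. Under HS, 5 cytosolic and 1 ER partner were lower in met-2Δ and 1 cytosolic and 1 mitochondrial partner higher, beside 10.5% and 6.59% of all genes.

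The genes most like each member over the 15 libraries were sought among 11903 genes with a mean of at least 1 CPM, by the root mean square (RMS) difference of log2(CPM + 0.5) after centring each gene. This is a description with no test. Nearest to hsp-70 were hsp-16.2 (RMS 0.66) and hsp-16.41 (0.92), which encode small heat shock proteins, with WBGene00012618 between them (0.86). F44E5.4 and F44E5.5 were nearest to each other (0.18), and outside the set F19B2.5 was nearest to both (1.19 and 1.32), with 0.381 CPM in WT at 20 °C, 3.88 CPM in met-2Δ, 2.75 CPM in met-2-CD, and a WT mean under HS of 411.9 CPM. The 3 genes nearest to hsp-4 were the proteasome subunit gene rpn-3 (0.1), glr-4 (0.14) and the HSP70-HSP90 organizer gene sti-1 (0.15). The remaining members had neighbours at 0.07 to 0.28. The first of these was lmd-3 for hsp-1 (0.13), col-138 for hsp-110 (0.19), rab-6.2 for hsp-3 (0.07), mans-3 for stc-1 (0.07) and ahcy-1 for hsp-6 (0.07). Of these, col-138 is near the floor, with a mean of 0.0702 CPM in WT at 20 °C and 7.73 CPM in WT under HS. At such levels the added 0.5 CPM shrinks a fold, so its likeness to hsp-110 is not one of fold size. The distances among F44E5.4, F44E5.5 and F19B2.5 are affected alike. Their means in WT at 20 °C, 0.0987, 0.0785 and 0.381 CPM, lie below the added 0.5 CPM. Within the set, hsp-1 and hsp-4 differed by 0.22 and hsp-3 and hsp-6 by 0.16, across compartments in both cases.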

How the data were processed

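The authors trimmed adapters with Trimmomatic, aligned reads to ce10 with hisat2 through QuasR and counted uniquely aligned reads on the strand of the gene over WS220 exons with qCount. The deposited values are raw counts per gene and library, not normalized or pooled. Every row names a gene, and 327 of 20392 genes had no count. Columns carry the letters a, b and c instead of the replicate numbers of the labels and were mapped to groups only. The check of column letters gave no pairing, so the model has no block.

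All 15 libraries entered one edgeR 4.0.16 quasi-likelihood model (R 4.3.3, limma 3.58.1) with 5 group means, TMM scaling and the filterByExpr filter, which left 15471 genes. The FDR is Benjamini-Hochberg adjusted over these, a gene is called below 0.01 with no fold limit, and errors of log2FC are standard errors. On simulated counts the model was checked for recovery of known changes. RPKM are TMM-scaled CPM divided by the summed exon length in WBcel235, which 97.4% of genes have. A floor of 3 counts is 0.0564 to 0.18 CPM. Counting intervals are exact conditional intervals at 95% that cover counting error only. Replicate libraries differed by more than sampling noise (chi-square per degree of freedom 6.63 to 53.6). Shares and ratios were compared by two-sided exact permutation tests over libraries.

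The members and lists were chosen with earlier results of these data known. Named are all 9 members, the regulators hsf-1, xbp-1 and atfs-1, and the 2 highest and 2 lowest called genes of each partner list in WT under HS. Of the 3 nearest genes in pattern, at least the nearest is named for each member. Others were named after their values were seen. From the lists, trap-1 was left out because in the worm this symbol names a gene for another protein, and hsp-2, daf-21 and hsp-10 matched no symbol, the last 2 being listed under other names. Alternatives were other scalings, the DESeq2 1.42.0 Wald test, other filters and thresholds, fits of the compared groups only, each library left out, a replicate block by letter, the pair as 1 feature and another baseline. No sequences are shown.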

Additional observations from a re-analysis of the deposited data

Results flagged for a closer look

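The HS response differed between met-2Δ and WT for 6 of the 9 genes by the interaction term of the edgeR model. Of all genes tested, 27% were called lower and 23.1% higher by this term. The differences (met-2Δ minus WT, log2) were −6.68 for F44E5.4, −7.39 for F44E5.5, −0.52 for hsp-1, −1.09 for hsp-110, −0.98 for hsp-4 and 0.36 for stc-1. The first 2 changed sign with met-2-CD as the baseline in place of WT at 20 °C, to 0.85 and 0.84, and the 14 and 11 counts of these genes over the 3 WT libraries at 20 °C are the smallest in the set.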

How the results depend on the processing

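Of 1649 values recomputed under the alternatives, 1365 log2 fold changes of single genes and 184 counts and shares kept their direction and side of the threshold, 36 log2 fold changes newly passed it, 29 no longer did and 23 changed sign. With the study's fold limits, the number of the 9 genes called fell to 4 for HS in WT, 4 for HS in met-2Δ, 3 and 2 for met-2Δ and met-2-CD against WT at 20 °C, and 0 for met-2Δ against WT under HS. An FDR of 0.05 gave 5 genes between the mutants. The shares of all genes called with the fold limits or at this FDR are not given here, so these counts have no background beside them. With each library left out, 3 to 6 genes were called between met-2Δ and WT under HS, 3 of them without WT HS library a or met-2Δ HS library b or c. Without division by length, the heat-inducible share was 31.9% in WT under HS, 0.396% in unstressed met-2Δ embryos and 0.903% in met-2-CD. The changes of sign were all in genes that had not passed, other than F44E5.4 and F44E5.5. Library totals alone gave 0.01 for hsp-6 under HS in WT and 0.08 for both hsp-1 and hsp-6 in met-2-CD. Between met-2Δ and WT under HS, hsp-6 had 0.0 by the DESeq2 Wald test, 0.04 with no filter, 0.07 with only these groups fitted and −0.04 to 0.02 with a library left out. Its interaction ranged from −0.14 to 0.01 with a library left out. With met-2-CD as baseline, hsp-3 under HS was −0.18, and the interaction was 0.85 and 0.84 for F44E5.4 and its neighbour F44E5.5, −0.34 for hsp-70 and 0.08 for hsp-3. The cause was not tested.

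Over all genes, calls between the mutants numbered 3178, but 1687 with only these groups fitted, 1883 to 2047 without 1 met-2Δ library and 1943 without met-2-CD library b. Between met-2Δ and WT under HS they numbered 2637, but 5088 with only these groups fitted and 1074 to 1486 without WT HS library a or c or 1 met-2Δ HS library. The interaction had 7749, and 2187 with met-2-CD as baseline. Column letters did not pair the libraries (r of deviations −0.399 to 0.182 over 30 pairs of equal letter), and a replicate block by letter gave 7, 8, 6, 5, 3, 6 and 6 called genes of the 9 in the 7 comparisons, in the order of the 2 HS responses, met-2Δ and met-2-CD against WT, the mutants, the genotypes under HS and the interaction. Over all 15471 genes, the same block gave 12186, 5609, 8383, 7743, 2843, 2227 and 7494 calls in this order. Few counts limit the WT levels of F44E5.4 and F44E5.5 at 20 °C, which rest on 14 and 11 counts in libraries of 45.83 M or more.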
